A study of Rattus norvegicus with 6 samples.

Results

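Cyclooxygenase 1, Cox2 and PS-PLA1 are 3 of the 311 features of a spotted 2-colour rat array, and were taken by these array names on all 6 arrays. The names matched 1 rat gene each in RefSeq (Ptgs1, Ptgs2 and Pla1a), through the synonyms Cox1, Cox2 and Ps-pla1. The study asked what the chromatin protein HMGA2 does to gene expression in ROSE199, a line from rat ovarian surface epithelium, and in a K-RAS-transformed derivative.

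HMGA2 transfectants were ROSE199 cells that stably carried the HMGA2 construct in the vector pEF6 (2 arrays). Their controls were ROSE199 cells stably transfected with empty pEF6 (1 array), and both were selected in 10 µg/ml blasticidin. ROSEA25 cells received an siRNA duplex against HMGA2 (siHMGA2, 2 arrays) or one against EGFP as the control (siEGFP, 1 array). Cells took up 2 doses of siRNA at 0.2 µM with 24 h between them, and were harvested 48 h after the first. ROSEA25 was taken as the RAS-transformed line because the treatment protocol names ROSE-RAS cells. All cells grew in 10% serum and 2 mM glutamine. RNA of untreated ROSE199 was the second colour on every array, so each value below is a log2 ratio of a sample over ROSE199. The sample was in Cy5 on the first array of each group and in Cy3 on the second. The 2 arrays of HMGA2 and of siHMGA2 were taken as dye-swapped labellings of 1 RNA. Each group was therefore 1 RNA sample, no test between groups was possible, and no p-value is given. The labels do not say whether a stable line was 1 clone or a pool. In RNA from whole cultures, fewer cells of a type and less RNA per cell cannot be told apart.

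Cyclooxygenases convert arachidonic acid, released from membrane phospholipids, into the common precursor of prostaglandins and thromboxane. Cyclooxygenase 1 is the form that many tissues make at rest. Cox2 is the inducible form, an early gene that serum, cytokines and, in rat intestinal epithelial cells, activated RAS are known to raise. Both forms occur in ovarian surface epithelium, and cyclooxygenase 1 is known to be abundant in human ovarian carcinomas. PS-PLA1 is a secreted phospholipase that cuts phosphatidylserine and yields lysophosphatidylserine, a lipid mediator. HMGA2 binds runs of A and T in the minor groove of DNA.

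The 3 promoters are shown because HMGA2 binds A/T-rich DNA and because the 3 genes differed in direction between the groups. Each is the RefSeq sequence of 300 bases on the + strand of rat build GRCr8, from 250 bases before the gene's start to 50 after it. Ptgs1 lies on chr3:39981169-39981468, Ptgs2 on chr13:64713813-64714112 and Pla1a on chr11:75825376-75825675. Capitals mark matches, on either strand, to the TATA box TATAAA, the CCAAT box CCAAT, the GC box GGGCGG, the E-box CACGTG, the AP-1 site TGANTCA, the C/EBP site TTNNGCAAT and the NF-kappaB site (GGG and TTTCC with any 2 bases between), with overlapping matches allowed.
Cyclooxygenase 1 (Ptgs1): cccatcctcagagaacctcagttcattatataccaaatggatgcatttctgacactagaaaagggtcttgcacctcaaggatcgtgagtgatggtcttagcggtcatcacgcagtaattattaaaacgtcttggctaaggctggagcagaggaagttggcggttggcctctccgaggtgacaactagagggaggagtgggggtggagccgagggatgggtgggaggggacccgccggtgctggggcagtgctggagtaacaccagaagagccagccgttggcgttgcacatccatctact
Cox2 (Ptgs2): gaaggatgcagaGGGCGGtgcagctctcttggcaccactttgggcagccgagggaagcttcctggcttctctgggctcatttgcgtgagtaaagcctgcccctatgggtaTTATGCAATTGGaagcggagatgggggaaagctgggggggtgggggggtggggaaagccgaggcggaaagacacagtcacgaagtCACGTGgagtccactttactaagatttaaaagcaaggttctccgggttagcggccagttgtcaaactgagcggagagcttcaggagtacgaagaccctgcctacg
PS-PLA1 (Pla1a): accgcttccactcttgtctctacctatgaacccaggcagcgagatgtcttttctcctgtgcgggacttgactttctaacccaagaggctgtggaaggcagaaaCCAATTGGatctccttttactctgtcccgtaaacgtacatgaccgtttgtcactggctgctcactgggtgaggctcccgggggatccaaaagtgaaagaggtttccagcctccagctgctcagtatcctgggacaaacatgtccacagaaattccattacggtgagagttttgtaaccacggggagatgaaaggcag

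The Cyclooxygenase 1 promoter held none of these motifs. Its longest run of A and T was 12 bases (taattattaaaa, first base 136 before the start), and a second of at least 8 bases (attatata) began 226 before it. The Cox2 promoter held a GC box 238 bases before the start, a C/EBP site 140 before it with an overlapping reverse CCAAT box, and an E-box 55 before it. Of 27456 RefSeq rat promoters of this length, 34.9% held the GC box, 2.31% the C/EBP site, 37.7% the CCAAT box and 6.65% the E-box. Cox2 also had 1 A/T run of 8 bases (atttaaaa) 32 before the start. The PS-PLA1 promoter held a CCAAT box on each strand, 147 and 144 bases before the start, overlapping by 2 bases, and no A/T run of at least 8. Such a run was present in 43.9% of all promoters. A and T made up 45.7% of the Cyclooxygenase 1 promoter, 43.3% of the Cox2 promoter and 49.0% of the PS-PLA1 promoter, against a median of 47.7% over all promoters. The TATA box letters TATAAA (14.3% of all promoters), the AP-1 site (7.33%) and the NF-kappaB site (1.51%) were in none of the 3 windows. Variants of these motifs were not searched. A match describes these letters only.

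Background was subtracted from each spot and the log2 ratios of each array were centred by a loess curve. One linear fit over the 6 arrays, with a term for dye, gave each group's difference, with a standard error pooled over all features. A feature passed when its difference reached a size of 1, exceeded 2 pooled standard errors and kept its sign when only the Cy5 arrays were used. The pooled error covers labelling and hybridization of a typical feature, and not the spread between cultures. It is not set by a gene's own spread over its spots. The SD over spots was 0.75 for PS-PLA1 on the siEGFP array, and 0.70 for Cyclooxygenase 1 on the first siHMGA2 array. In comparisons with these arrays the pooled standard error can be too small for the gene. Swapped arrays correlated across features at 0.838 for HMGA2 and 0.886 for siHMGA2. The day of quantification was one for the HMGA2 arrays and another for the remaining 4, so that HMGA2 and the day cannot be told apart. HMGA2 itself, spotted as HMGI-C, read 3.70 and 3.33 in HMGA2 transfectants against 0.26 in empty-vector cells, and 1.20 and 1.59 with siHMGA2 against 2.40 with siEGFP. K-ras read 4.82 and 4.60 with siHMGA2 and 4.25 with siEGFP. All 5 ovarian surface epithelial markers on the array (WT1, E-cadherin, P-cadherin, the mesothelin precursor and DOC-2) were above the blank spots in ROSE199 on every array and in every group. Of 5 mesenchymal markers (Collagen alpha, Thy-1, Osteonectin, Fibrillin-1 and PDGF receptor), 3 were above blank in ROSE199 on every array. Of the leukocyte markers of the list used here, CD45, CD68, CD14 and lysozyme are not among the array's names. The list also held MHC class II. A feature named MHC is on the array, but its name does not say whether it is that gene.

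Cox2 was the only one of the 3 that passed between HMGA2 and empty-vector cells. Its log2 ratio to ROSE199 was -1.13 and -1.20 on the 2 HMGA2 arrays, against 0.19 on the empty-vector array. Both HMGA2 arrays were low, and in both dye orientations, while empty-vector cells were close to ROSE199. The fitted difference was -1.31 (pooled SE 0.22), a level 2.47-fold lower in HMGA2 transfectants. In this comparison 24 of 311 features passed (7.72%), 14 higher and 10 lower, and Cox2 was the 7th lowest. The count was 40 without the first HMGA2 array, and 34 features were higher and 7 lower when arrays were centred on beta actin. Of the markers above, DOC-2 was higher (1.12) and Collagen alpha lower (-1.44) in HMGA2 than in empty-vector cells, and their part in the Cox2 value was not tested.

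Cox2 was bright, and its 5 spots lay close together. Its net signal was 546 and 941 in the sample channel of the 2 HMGA2 arrays, against 1788 on the empty-vector array. The ROSE199 channel of the same arrays read 1446 and 1910, against 1569. All were far above the limit set by the blank spots, which was at most 111 on these arrays. The SD over the 5 spots was 0.04 and 0.02 on the HMGA2 arrays and 0.03 on the empty-vector array. Against ROSE199 itself Cox2 was 2.24-fold lower in HMGA2 cells (-1.16, pooled SE 0.12), the 7th lowest of 311, where 6.75% of features passed.

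Cyclooxygenase 1 and PS-PLA1 did not pass in HMGA2 cells. Cyclooxygenase 1 read -0.17 and 0.16 on the HMGA2 arrays, against -0.11 with empty vector, a difference of -0.05 (pooled SE 0.22). PS-PLA1 read -0.39 and 0.54 on the HMGA2 arrays, against -0.23 with empty vector, a difference of 0.02 (pooled SE 0.22). For both genes the 2 HMGA2 arrays stood on opposite sides of 0, the Cy5 array low and the Cy3 array high. The fitted dye term was -0.15 for Cyclooxygenase 1, -0.28 for PS-PLA1 and 0.05 for Cox2. The limit of 2 pooled SE was 0.45 here, so differences of smaller size could not be resolved. Differences between 0.45 and 1 could not pass either. The PS-PLA1 difference was 0.56 without the first HMGA2 array and -0.17 without the second. For PS-PLA1 differences above 0.45 could thus not be resolved either. None of the 3 passed between empty-vector cells and ROSE199 (0.04, 0.14 and 0.06 for Cyclooxygenase 1, Cox2 and PS-PLA1), where 2.89% of features passed.

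**Figure D1:**
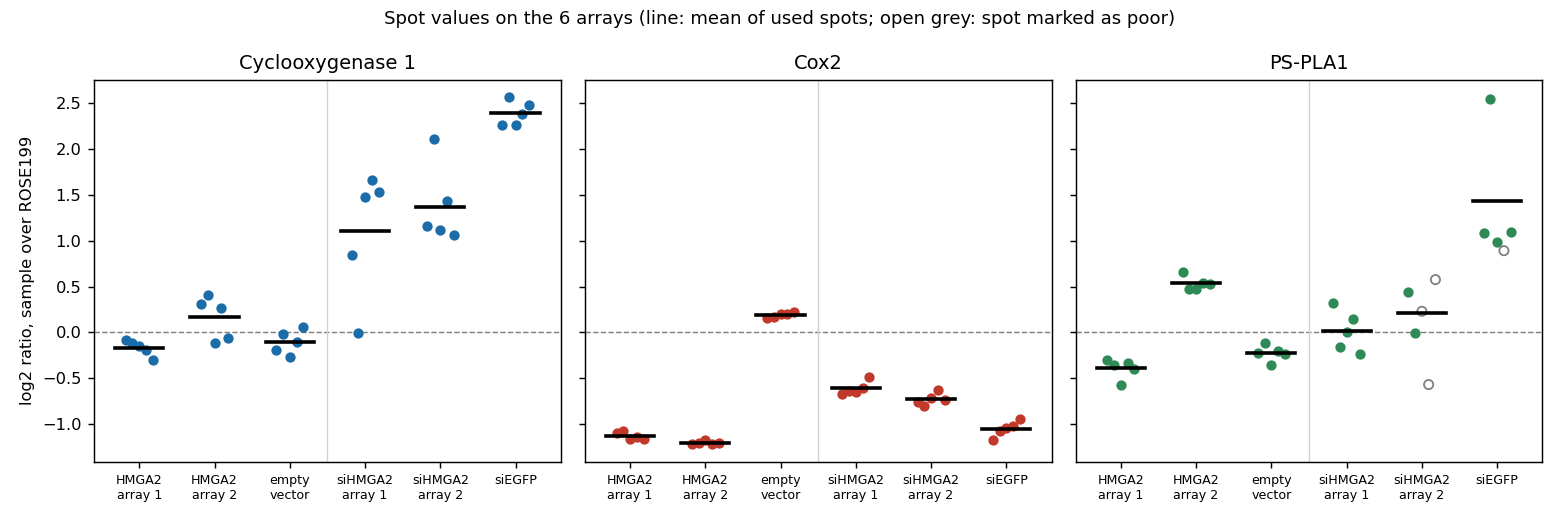
Log2 ratio over ROSE199 (y axis) of each spot of Cyclooxygenase 1, Cox2 and PS-PLA1 on the 6 arrays (x axis), with a line at the mean of the spots used, open grey circles for spots marked as poor, and a dashed line at ROSE199. The Cox2 means lie between -1.20 and -0.61 on every array but that of the empty vector, Cyclooxygenase 1 is high on the 3 ROSEA25 arrays, and 1 PS-PLA1 spot at 2.55 stands apart on the siEGFP array.

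In RAS-transformed ROSEA25 cells the pattern of the 3 genes was another one. With the control siRNA, Cyclooxygenase 1 and PS-PLA1 were higher than in ROSE199 and Cox2 was lower. All 3 passed, in a comparison where 83 of 311 features did (26.7%), 35 higher and 48 lower. ROSEA25 differs from ROSE199 in its RAS gene, in its derivation and in having received siRNA, and these cannot be told apart here. Markers of the tissue of origin moved as well: 4 of the 5 ovarian surface epithelial markers were lower in siEGFP-treated cells than in ROSE199 (P-cadherin -3.73, E-cadherin -2.55, the mesothelin precursor -1.98 and WT1 -1.41), while DOC-2 (-0.74) did not pass. Of 5 mesenchymal markers 1 was lower (Collagen alpha, -4.70), but only 2 of the 5 were above blank on the siEGFP array. Thy-1, Fibrillin-1 and PDGF receptor were not, so their change could not be judged. Their part in the values of the 3 genes was not tested.

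Cyclooxygenase 1 had a log2 ratio of 2.39 on the siEGFP array. Its net signal there was 3440 in the ROSEA25 channel, against 549 in the ROSE199 channel, and the 5 spots lay between 2.26 and 2.57. Every spot was high. With the dye term the difference was 2.54 (pooled SE 0.19), 5.82-fold higher than ROSE199 and the 9th highest of 311. It passed under each of the 17 processing alternatives tried, at 1.81 to 3.21, though some of these give the same value and are not independent checks.

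PS-PLA1 had a log2 ratio of 1.43 on the siEGFP array, from the 4 of 5 spots not marked as poor. These spots read 1.08, 2.55, 0.99 and 1.09, with a median of 1.09. One spot was far above the others, so the mean lies above 3 of the 4. The SD over these spots was 0.75, which the pooled SE below does not reflect. The gene was also dim: its net signal was 291 in the ROSEA25 channel, where the blank limit was 142, and 198 in the ROSE199 channel, where the limit was 173. In the ROSE199 channel the spots at 1.08 and 2.55 read 129 and 110, under that limit. The spot at 1.08 was under the limit in the ROSEA25 channel too (126). The fitted difference was 1.71 (pooled SE 0.19), 3.27-fold higher than ROSE199 and the 18th highest. It was 1.34 with the farthest spot left out. It no longer passed with no background subtraction (0.72) or in the fit to the authors' deposited table (0.93).

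Cox2 had a log2 ratio of -1.05 on the siEGFP array. Its 5 spots read from -1.17 to -0.95, with net signals of 527 to 621 in the ROSEA25 channel and 1160 to 1458 in the ROSE199 channel. Every spot was brighter for ROSE199. The difference was -1.10 (pooled SE 0.19), 2.14-fold lower in siEGFP-treated ROSEA25 cells, the 46th lowest of 311. It stayed below 0 but missed the threshold of 1 with no background subtraction (-0.80) and with arrays scaled to one spread (-0.83).

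**Figure D2:**
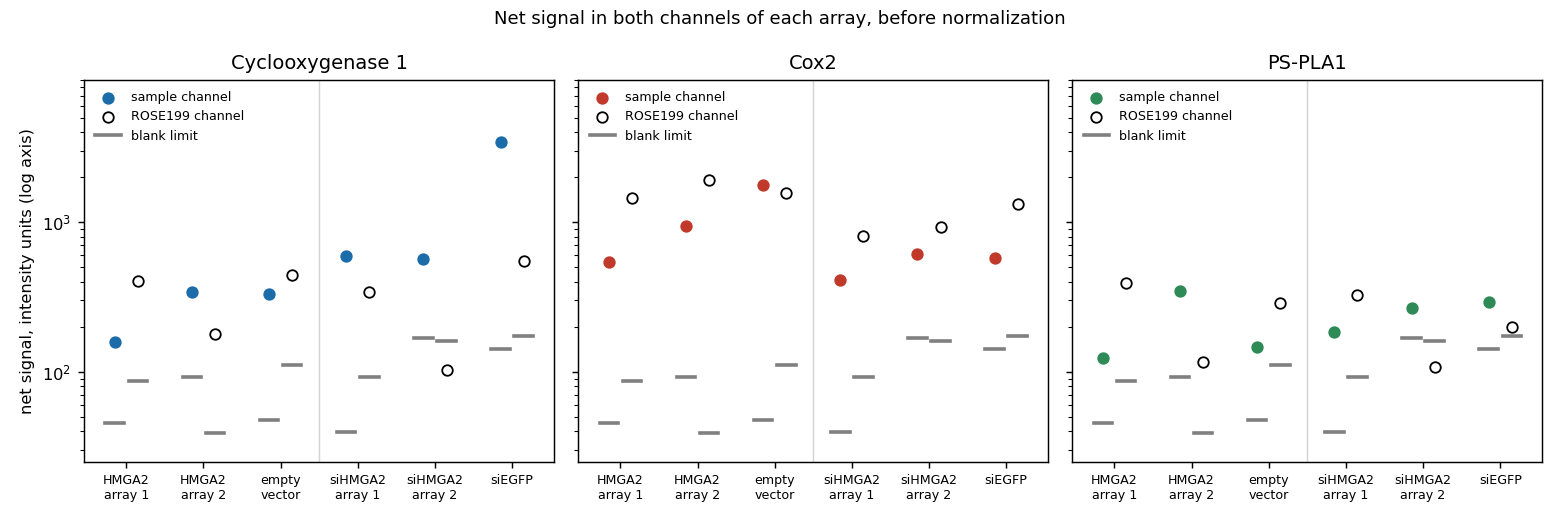
Net signal of each gene (y axis, intensity units, log scale) in the sample channel (filled) and the ROSE199 channel (open) of the 6 arrays, with the limit set by blank spots in each channel as a grey bar. Cyclooxygenase 1 reaches 3440 in the siEGFP sample, Cox2 is far above the limits throughout, and the ROSE199 values of Cyclooxygenase 1 and PS-PLA1 lie below the limit on the second siHMGA2 array.

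The authors' deposited table gives another direction for Cox2 in ROSEA25 cells. In the authors' deposited table Cox2 is 0.97 and -0.67 on the siHMGA2 arrays and 2.32 on the siEGFP array, where the spot intensities give -0.61 and -0.73 with siHMGA2 and -1.05 with siEGFP. The first siHMGA2 array and the siEGFP array thus have opposite signs in the 2 sources, while the second siHMGA2 array is alike in both. On the ROSE199-derived arrays the authors' deposited table has -1.02 and -1.17 for Cox2 with HMGA2 and 0.26 with empty vector, close to the spot values. The fit to the authors' deposited table gave -0.91 for HMGA2 against empty vector, which did not pass. The dye term of this fit is shared by all arrays, and takes in the siHMGA2 pair with its opposite signs (0.97 and -0.67). That term shifts the single empty-vector array, so -0.91 is smaller in size than the distance between the deposited values themselves.

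The gap between the authors' deposited table and the spots for Cox2 was 1.58 on the first siHMGA2 array, the 3rd largest of 311 (median size 0.25), and 3.37 on the siEGFP array, the 2nd largest (median size 0.54). On the siEGFP array 2 of the 311 features had values of at least 1 in size with opposite signs in the authors' deposited table and in the spots: Cox2 and ORP150, a stress-induced chaperone, which is named here after its values were seen. No feature did so on the other 5 arrays. Run through the same fit, the authors' deposited table puts Cox2 1.87 above ROSE199 in siEGFP-treated cells, where the spots put it 1.10 below. The steps from the spots to the authors' deposited table are not given in the sources used here. The cause of the gap was not tested. The direction of Cox2 in ROSEA25 cells therefore depends on which of the 2 is read, and the values below are from the spots unless the table is named.

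For Cyclooxygenase 1 the 2 sources were closer than for Cox2 on the siEGFP array. The authors' deposited table has Cyclooxygenase 1 at 0.78 and 1.30 with siHMGA2 and at 2.21 with siEGFP. It is thus high on all 3 ROSEA25 arrays in the authors' deposited table too. For PS-PLA1 the authors' deposited table has -0.28 and 0.88 with siHMGA2 and 0.24 with siEGFP, where the spots gave 1.43 with siEGFP. On the HMGA2 arrays the authors' deposited table has Cyclooxygenase 1 at -0.70 and 0.46, against -0.24 with empty vector. PS-PLA1 stands at -0.87 and 0.76 with HMGA2 in the authors' deposited table, against -0.44 with empty vector. Both genes again lie on opposite sides of 0 on the swapped HMGA2 arrays.

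**Figure D3:**
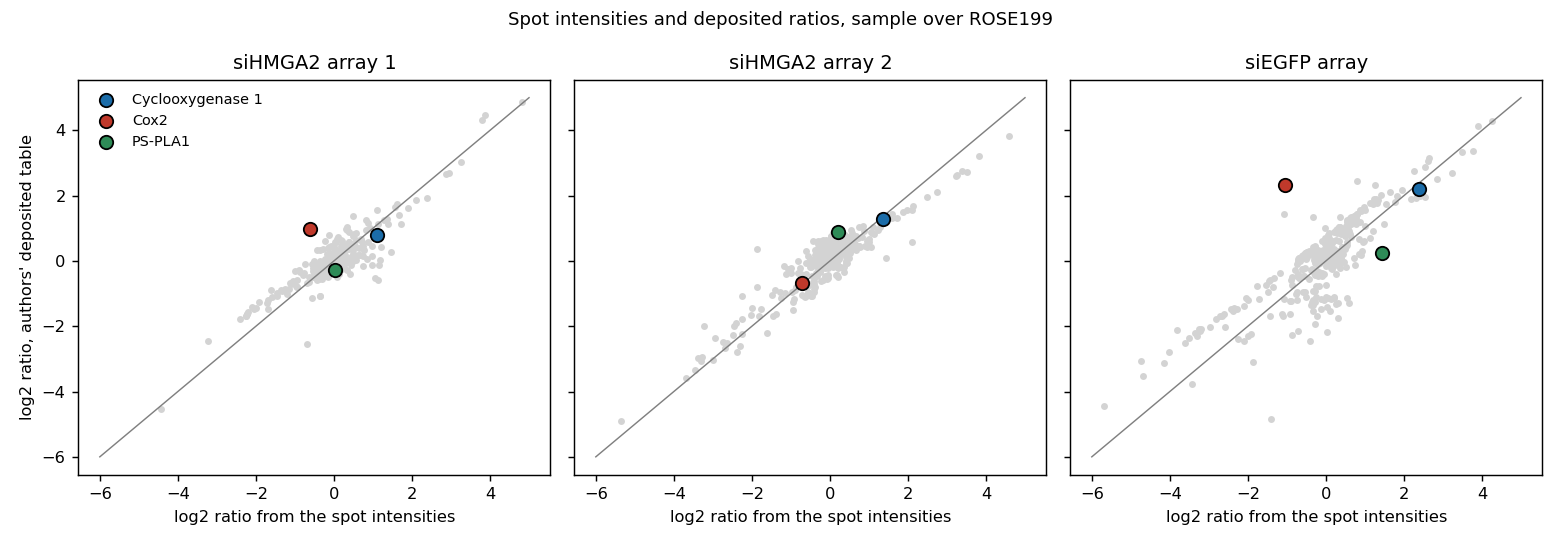
Log2 ratio over ROSE199 in the authors' deposited table (y axis) against that from the spot intensities (x axis) for all 311 features (grey) on the 3 ROSEA25 arrays, with the line of equal values. Cox2 lies 1.58 above the line on the first siHMGA2 array and 3.37 above it on the siEGFP array, and on the line on the second siHMGA2 array.

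With siHMGA2, both genes that were high in ROSEA25 cells were lower than with siEGFP. Cyclooxygenase 1 and PS-PLA1 passed as lower, while Cox2 did not pass. In this comparison 34 of 311 features passed (10.9%), 27 higher and 7 lower, so that the 2 genes were among 7 that fell. The count was 16 without the first siHMGA2 array, and 25 features were higher and 16 lower when arrays were centred on their median. The siEGFP array enters this comparison and the one with ROSE199 with opposite sign, so an error on that array moves both, and the 2 are not independent. Of the ovarian surface epithelial markers 2 of 5 were higher with siHMGA2 than with siEGFP (P-cadherin, 1.60, and E-cadherin, 1.13). So was 1 of 5 mesenchymal markers (Collagen alpha, 1.36), of which 2 were above blank with siEGFP. The part of these markers in the values of the 3 genes was not tested.

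Cyclooxygenase 1 read 1.10 and 1.37 on the siHMGA2 arrays, against 2.39 on the siEGFP array. Both siHMGA2 arrays lay between ROSE199 and the siEGFP array. The 5 spots were spread from -0.01 to 1.67 on the first siHMGA2 array and from 1.06 to 2.10 on the second, and none reached the lowest siEGFP spot (2.26). The SD over spots on the first siHMGA2 array was 0.70, which the pooled SE does not reflect. The difference was -1.30 (pooled SE 0.22), 2.47-fold lower with siHMGA2 than with siEGFP. With arrays scaled to one spread it was -0.72 and did not pass. Against ROSE199 Cyclooxygenase 1 was still 2.36-fold higher with siHMGA2 (1.24, pooled SE 0.12), the 20th highest, in a comparison where 19.0% of features passed. The ROSE199 channel was not well above background for this gene on the second siHMGA2 array (103, limit 160), and the value was 1.27 without that array. That value was 0.80, not passing, with no background subtraction.

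PS-PLA1 read 0.02 and 0.22 on the siHMGA2 arrays, against 1.43 on the siEGFP array. With siHMGA2 it was thus near ROSE199. The difference of -1.59 (pooled SE 0.22), 3.02-fold lower with siHMGA2, was the lowest of the 311 features. It rests on few spots, whose spread the pooled SE does not reflect. There were 5 on the first siHMGA2 array, 2 on the second, and 4 on the siEGFP array with the 1 high spot described above. With the farthest spot of each feature left out the difference was -1.26. It no longer passed with no background subtraction (-0.64) or in the fit to the authors' deposited table (-0.63). Against ROSE199 the siHMGA2 value was 0.12 (pooled SE 0.12) and did not pass. The ROSE199 channel of the second siHMGA2 array was not well above background for PS-PLA1 either (107, limit 160). By their mean signal 5 of the 6 arrays thus measured both genes in ROSE199. On the siEGFP array single PS-PLA1 spots were under the limit.

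Cox2 read -0.61 and -0.73 on the siHMGA2 arrays, against -1.05 on the siEGFP array. The 2 siHMGA2 arrays lay close together and above the siEGFP array. The difference of 0.43 (pooled SE 0.22) did not pass, and neither did that from ROSE199 (-0.67, pooled SE 0.12). In the fit to the authors' deposited table the difference between siHMGA2 and siEGFP was -1.72, of the opposite sign.

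**Figure D4:**
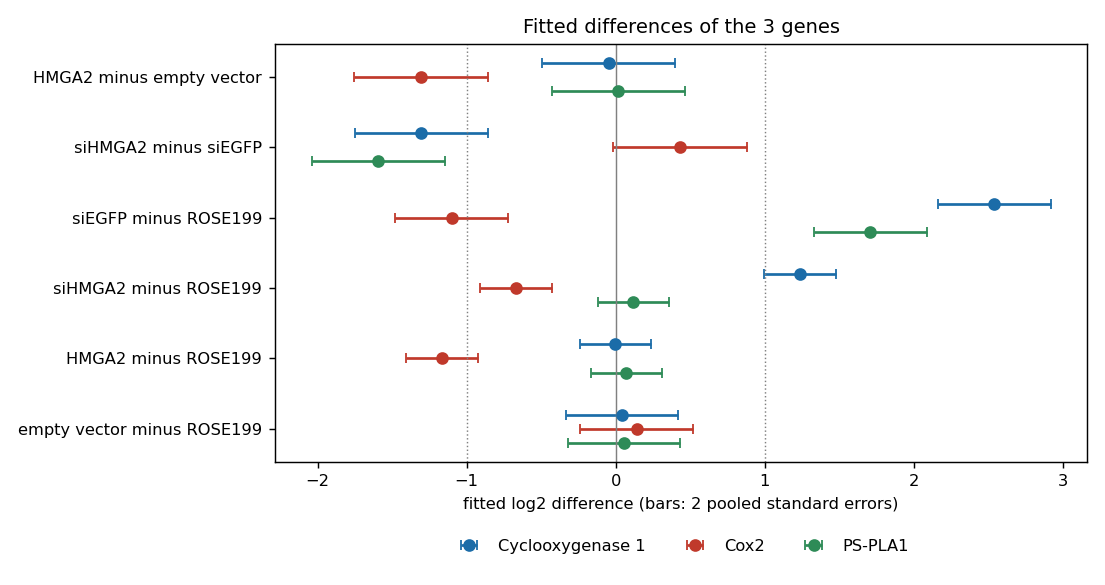
Fitted log2 differences (x axis) of Cyclooxygenase 1 (blue), Cox2 (red) and PS-PLA1 (green) in the 6 comparisons (rows), with bars of 2 pooled standard errors and dotted lines at a size of 1. Cox2 is the one below -1 for HMGA2 against empty vector, and Cyclooxygenase 1 and PS-PLA1 are below -1 for siHMGA2 against siEGFP and above 1 for siEGFP against ROSE199.

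Cyclooxygenase 1 and Cox2 catalyse the same reaction, so the distance between them was followed as well. It is a difference of log2 ratios, each relative to ROSE199, and not of the levels of the 2 genes. Cyclooxygenase 1 minus Cox2 was 0.96 and 1.37 on the HMGA2 arrays, against -0.30 with empty vector. It was 1.71 and 2.10 with siHMGA2, against 3.44 with siEGFP. From the spots, all arrays but that of the empty vector had Cyclooxygenase 1 above Cox2. In the authors' deposited table Cox2 lies above Cyclooxygenase 1 by 0.19 on the first siHMGA2 array and by 0.10 on the siEGFP array as well. The fitted change of this distance was 1.26 (SE 0.32) for HMGA2 against empty vector, with Cox2 as the part that passed. It was -1.74 (SE 0.32) for siHMGA2 against siEGFP, with Cyclooxygenase 1 as the part that passed. There it was 0.13 in the fit to the authors' deposited table. For siEGFP against ROSE199 it was 3.64 (SE 0.27). The fit to the authors' deposited table, with its shared dye term, gave 0.61 for HMGA2 against empty vector and 0.76 for siEGFP against ROSE199. Read directly, the deposited distance was 0.32 and 1.62 with HMGA2, -0.51 with empty vector and -0.10 with siEGFP.

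In order of level relative to ROSE199, Cyclooxygenase 1 was highest with siEGFP (2.54), then with siHMGA2 (1.24), and then at 0.04 with empty vector, 0.00 in HMGA2 cells and 0 in ROSE199 by definition. The last 3 did not differ beyond 2 pooled standard errors. From the spots, Cox2 was highest with empty vector (0.14), next to ROSE199, followed by siHMGA2 (-0.67), siEGFP (-1.10) and HMGA2 (-1.16). Empty vector and ROSE199 did not differ beyond that error, nor did siHMGA2 and siEGFP. HMGA2 and siEGFP were nearly equal, a pair that the fit did not compare. The fit to the authors' deposited table gave another order of Cox2: siEGFP (1.87), siHMGA2 (0.15), ROSE199, empty vector (-0.18) and HMGA2 (-1.09). The dye term of that fit moved empty vector from its deposited 0.26, above ROSE199, to below it. The siHMGA2 value averages 2 deposited values of opposite sign (0.97 and -0.67). PS-PLA1 was highest with siEGFP (1.71), and the other groups lay between 0.06 and 0.12 of ROSE199, within 2 pooled standard errors of it.

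**Figure D5:**
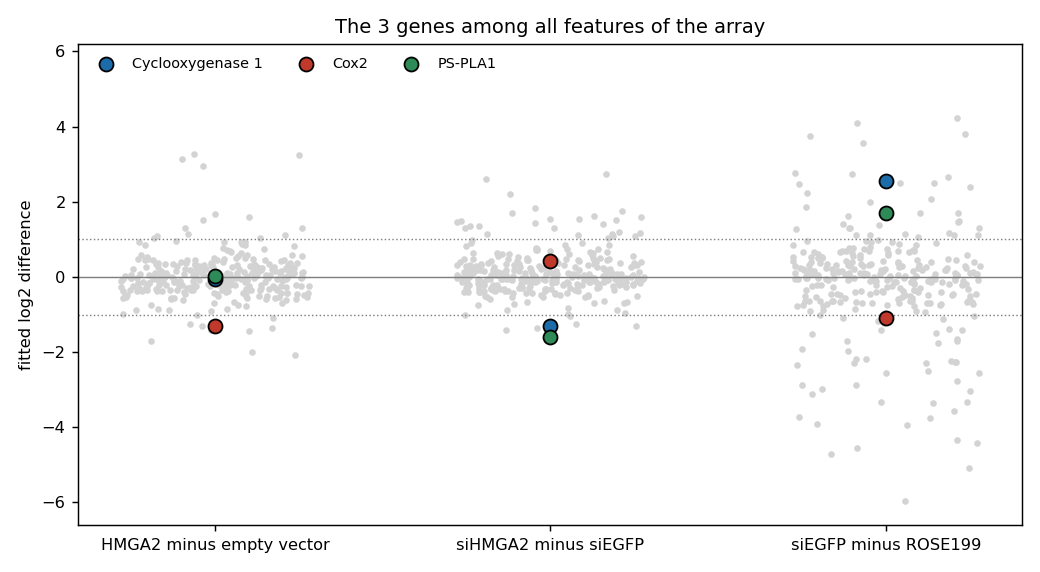
Fitted log2 difference (y axis) of all 311 features (grey, spread sideways for visibility) in 3 comparisons (x axis), with Cyclooxygenase 1 (blue), Cox2 (red) and PS-PLA1 (green) marked and dotted lines at a size of 1. PS-PLA1 is the lowest of all features for siHMGA2 against siEGFP, and Cox2 the 7th lowest for HMGA2 against empty vector. The PS-PLA1 value takes in the siEGFP spot that stands apart, and was smaller in size with the farthest spots left out.

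The array held 1 further phospholipid enzyme of the list used here, H-rev107 (Plaat3), a phospholipase A that can release arachidonic acid and is known as a RAS-suppressed growth inhibitor. H-rev107 read 1.35 and 1.31 on the HMGA2 arrays, against 0.60 with empty vector. It read -0.41 and -1.14 with siHMGA2, against -1.98 with siEGFP. It was thus low where Cyclooxygenase 1 and PS-PLA1 were high. H-rev107 passed as 4.52-fold lower in siEGFP-treated cells than in ROSE199 (-2.17), 2.64-fold higher with siHMGA2 than with siEGFP (1.40), and 2.52-fold higher in HMGA2 cells than in ROSE199 (1.33). Its difference of 0.92 between HMGA2 and empty-vector cells did not pass. A second feature, named Hrev107-2 on the array and outside the list, passed in none of these: it was -0.38 for HMGA2 against empty vector, 0.05 for siEGFP against ROSE199, -0.09 for siHMGA2 against siEGFP and -0.24 for HMGA2 against ROSE199. Of the 4 enzymes, 1 was lower and none higher for HMGA2 against empty vector, 2 were higher and 2 lower for siEGFP against ROSE199, and 1 was higher and 2 lower for siHMGA2 against siEGFP. Over all features 7.72%, 26.7% and 10.9% passed in these comparisons. With the values of the authors' deposited table, 2 of the 4 were higher, Cox2 among them, and 1 lower for siEGFP against ROSE199. The medians of the 4 were -0.01, 0.30 and -0.44 in these 3 comparisons, against 0.00, -0.02 and 0.03 over all features.

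Cox2 was also set beside 19 other early genes that growth factors induce. Between HMGA2 and empty-vector cells 1 of the 19 fell and none rose, where 7.72% of all features passed, and the median was -0.22 against 0.00 over all features. All 19 lay above Cox2. The one that fell was Serum inducible kinase, a polo-like kinase (-1.09), and c-myc (-0.61), Fra-1 (-0.90) and TDAG51 (-0.78) did not pass. For siEGFP against ROSE199, 4 rose and 4 fell, with a median of 0.05 against -0.02, where 26.7% of all features passed. Cpg21, a dual-specificity phosphatase (2.47), the AP-1 subunit Fra-1 (1.40), Neuritin (4.10) and TDAG51 (1.18) rose, while FISP-12 (-5.97), Thrombospondin 1 (-3.77), Cyr61 (-3.04) and Fra2 (-1.002) fell. Cox2 lay below 16 of the 19 from the spots, and above 17 of them from the authors' deposited table. For siHMGA2 against siEGFP, 3 rose (Cyr61, FISP-12 and Thrombospondin 1) and Cpg21 fell, with a median of 0.23 against 0.03, where 10.9% of all features passed. From the authors' deposited table none of the 19 rose and 3 fell in that comparison.

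The features most like each gene over the 6 arrays were ranked by Pearson's r among the 130 others that spanned at least 1 on the log2 scale. These r describe 6 arrays that share the ROSE199 RNA, and 4 RNA samples. CD44, a hyaluronan receptor, and TGF alpha, a ligand of the EGF receptor, were closest to Cyclooxygenase 1 (r = 0.967 each), followed by the phosphatase Mkp4 (0.963). TGF alpha was near it in size too: it read 0.88 and 1.87 with siHMGA2, against 2.53 with siEGFP. Serum inducible kinase (0.911), MYB-binding protein (0.907) and T16 (0.873) were closest to Cox2. Over the values of the authors' deposited table these 3 r lay between 0.367 and 0.552. ID3, an inhibitor of basic helix-loop-helix factors, was closest to PS-PLA1 (0.920), and Cyclooxygenase 1 came next (0.799), followed by the Glucocorticoid receptor (0.738). From the authors' deposited table these r were 0.793, 0.636 and 0.725. For Cyclooxygenase 1 that table gave 0.761 with CD44, 0.982 with TGF alpha and 0.948 with Mkp4.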

How the data were processed

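RNA was measured on 6 spotted 2-colour arrays, each with 1 sample in one dye and ROSE199 RNA in the other. Labelling used 20 µg of RNA and dendrimer-bound dyes, per the labels. The deposited quantification files give, for every spot, its mean intensity and the median intensity of its local background, per the file headers. The authors' deposited table holds log2 ratios. Its direction (sample over ROSE199) was read from its correlation with the spots, which was 0.848 for empty vector, 0.844 and 0.948 for HMGA2, 0.841 for siEGFP, and 0.895 and 0.924 for siHMGA2. Its column medians in that order are -0.03, -0.04, 0.03, 0.09, -0.10 and 0.20. Its centring and background treatment are unknown.

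With R 4.3.3 and limma 3.58.1, background was subtracted by normexp (offset 50), and ratios were centred by loess with a span of 0.3 and 4 iterations, in which blanks and beta actin had no weight. Spots of 1 name were averaged into 311 features, leaving out spots marked as poor (21 to 64 of 1760 per array). Each of the 3 genes has 5 spots, all in 1 of 16 subgrids. A feature was above blank where the net signal was more than 3 SD over the mean of 37 blanks. The fit has 1 value per group and 1 dye term, and leaves 1 residual per feature. The residuals were pooled over features by their median absolute deviation, which gives noisy features little weight (SD 0.169). Their root mean square was larger (0.229), and all pooled standard errors use the smaller value. Single-array groups add no residual, and their dye term comes from the swapped pairs. The fit was tested on simulated data.

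The number of arrays limits the precision. Alternatives were other centrings and background treatments, scaling, dye terms and spot summaries, leaving out each swapped array, and the deposited ratios. Leaving out the farthest spot and shifting subgrids by beta actin were chosen after seeing the data. The genes, lists and rules were chosen with earlier results of these data known. Genes named are the 3 members, all features of the 2 lists, the 3 features most like each member, HMGI-C, K-ras and the cell type markers. HMGA2 quantification on another day was not separable from the HMGA2 group.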

Additional observations from a re-analysis of the deposited data

How the results depend on the processing

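Each result was recomputed under 17 alternatives. Some coincide within a comparison, so counts of alternatives are not counts of independent checks. For example, no dye term and Cy5 arrays only both gave 2.39 for Cyclooxygenase 1, siEGFP against ROSE199. Cyclooxygenase 1 for siEGFP against ROSE199 and Cox2 for HMGA2 against ROSE199 passed in all 17. Cox2 for HMGA2 against empty vector passed in 16, at -1.37 to -0.91, and missed with the deposited ratios.

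From the authors' deposited table, Cox2 was -0.91 for HMGA2 against empty vector, reversed to 1.87 for siEGFP against ROSE199, and was -1.72 for siHMGA2 against siEGFP. From the authors' deposited table, PS-PLA1 was -0.32, 0.93 and -0.63 for these 3 comparisons, Cyclooxygenase 1 was -0.30 in the first and -1.60 in the last, the reversed distance of Cyclooxygenase 1 from Cox2 was 0.13 for siHMGA2 against siEGFP, and 65 features passed there. The causes were not tested.

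With no background subtraction, Cox2 was -1.12 for HMGA2 against empty vector and -0.80 for siEGFP against ROSE199, Cyclooxygenase 1 was 1.81 and PS-PLA1 0.72 for siEGFP against ROSE199, and they were -1.01 and -0.64 for siHMGA2 against siEGFP. Then 15 features passed for HMGA2 against empty vector, and siHMGA2 against siEGFP had 22. With arrays scaled to one spread, Cyclooxygenase 1, Cox2 and PS-PLA1 were 1.97, -0.83 and 1.38 for siEGFP against ROSE199 and -0.72, 0.15 and -1.27 for siHMGA2 against siEGFP. Then 13 features passed for siHMGA2 against siEGFP and 17 for empty vector against ROSE199.

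With beta actin centring, which moved the median of all features by 0.21 for HMGA2 against empty vector and by -0.24 for siEGFP against ROSE199, Cox2 was -1.12 for HMGA2 against empty vector, where 41 features passed and 82.9% of them were higher (58.3% before). The 3 genes were 3.02, -1.36 and 1.29 for siEGFP against ROSE199, and Cyclooxygenase 1 and PS-PLA1 were -1.73 and -1.13 for siHMGA2 against siEGFP. With median centring, Cyclooxygenase 1 and PS-PLA1 were -0.39 and -0.18 for HMGA2 against empty vector, 3.21 and 1.48 for siEGFP against ROSE199, and -1.84 and -1.23 for siHMGA2 against siEGFP, where 61% of the features that passed were higher (79.4% before). For empty vector against ROSE199 both centrings gave 27.3% higher (44.4% before).

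PS-PLA1 moved with the dye and spot choices. For HMGA2 against empty vector it was 0.30 with no dye term, -0.17 in Cy5 arrays only and 0.20 with a dye term per day. For siEGFP against ROSE199 it was 1.43 with no dye term and in Cy5 arrays only, 1.53 with a dye term per day, 1.36 by the median over spots and 1.34 without the farthest spot. For siHMGA2 against siEGFP these were -1.31, -1.41, -1.41, -1.25 and -1.26. Cyclooxygenase 1 was -1.09 by the median over spots and -1.11 without the farthest spot for siHMGA2 against siEGFP, and 0.14 by the median for HMGA2 against empty vector. A dye term per day gave 15 features for empty vector against ROSE199.

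Leaving out each swapped array in turn, PS-PLA1 ranged from -0.17 to 0.56 for HMGA2 against empty vector, from 1.53 to 1.89 for siEGFP against ROSE199 and from -2.14 to -1.41 for siHMGA2 against siEGFP. Features passing ranged from 27 to 40 for HMGA2 against empty vector (40 without HMGA2 replicate 1), from 16 to 42 for siHMGA2 against siEGFP (16 without siHMGA2 replicate 1) and from 9 to 15 for empty vector against ROSE199 (15 without either HMGA2 array). A lone array left in a group was assumed to vary like the others. The signals near the blank limit were those of PS-PLA1 and, on the second siHMGA2 array, of Cyclooxygenase 1 in the ROSE199 channel.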
